A study of Mus musculus with 11 samples.

Results

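The mitochondrial ribosome, or mitoribosome, is built from 2 subunits whose proteins are all encoded in the nucleus, made in the cytosol and imported into mitochondria. The genes of those proteins in mouse adrenals were taken as every gene on the array whose symbol starts with Mrpl (large subunit) or Mrps (small subunit) followed by a number. Of 76 such genes with a probe, 70 were kept because their signal was above background (detection p under 0.05) in at least 5 of 10 mice, among 9302 kept genes in all. They comprised 43 large-subunit and 27 small-subunit genes, and each of the 70 was detected in all 10 mice. Of the other 6, Mrpl19, Mrpl21, Mrpl32, Mrps14 and Mrps36 were detected in 0 mice and Mrpl45 in 2. Gene expression was measured on Illumina bead arrays in 5 mINDY-KO mice and 5 WT littermates. mINDY, encoded by Slc13a5, is a citrate transporter of the plasma membrane. The mINDY-KO mice were homozygous for the SLC13A5tm1.2Helf allele, made by crossing SLC13A5tm1.1Helf carriers to an Hprt1-Cre line, so that the deletion was in the whole body and not limited to the adrenal. Both genotypes were males of 12 to 16 weeks on a C57B/6J backcross and standard chow, and total RNA came from adrenals with cortex and medulla together. In RNA from a mixed tissue, fewer cells of a type and less RNA per cell cannot be told apart.

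The mitoribosome translates the few messages of mitochondrial DNA, which encode core subunits of the respiratory chain. Part of its proteins descend from the bacterial ribosome, most of them keeping bacterial numbers, and the rest were gained in mitochondria. In the adrenal, steroid synthesis begins inside cortical mitochondria, and these cells are rich in them. Levels are given as log2 units above the mean of each array, after the log signals of every array were brought to a common spread. The spread (SD of log2 signals) before that step was 1.44 in mINDY-KO mouse 4 to 1.67 in mINDY-KO mouse 2, so that units and folds approximate those of the raw signals. Levels of different probes are not set against each other, since each probe binds with its own strength.

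mINDY-KO adrenals had slightly higher mean RNA levels for most mitoribosome genes, and no gene among them passed the test. A higher mean in mINDY-KO mice was seen for 31 of 43 large-subunit genes and 21 of 27 small-subunit genes, together 74.3% of the 70, against 43.6% of all 9302 genes. The median difference was 0.087 for the large subunit and 0.11 for the small subunit, or 1.06-fold and 1.08-fold, against -0.019 over all genes. By limma with Benjamini-Hochberg adjustment over 13341 probes, 0 of the 70 genes were past an adjusted p of 0.05 in either direction, and the smallest adjusted p was 0.234. Over all probes 0.015% were called, and over all genes 0.0108% were called higher and the same share lower. At an unadjusted p under 0.05, 10 members were higher (6 large, 4 small), or 14.3%, against 4.33% of all genes, and 0 were lower, against 7.04% of all genes. The test of the study's methods, an analysis of variance on Z scores, was run here on kept probes and 5 WT mice, whereas the supplement counts 6 WT. It gave 6 large-subunit and 5 small-subunit genes at an unadjusted p under 0.05, or 15.7%, against 10.4% of all probes in either direction. After adjustment it gave 0. At the thresholds of the methods (Z ratio 1.5, p 0.05, false discovery rate 0.3), 111 of 13341 probes passed, or 0.832%, and 0 members. Differences ran from -0.11 for Mrps27 to 0.29 for Mrps18c. The 95% intervals of single members stayed between -0.30 (Mrpl9) and 0.52 (Mrps12), the latter being 1.43-fold.

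**Figure D1:**
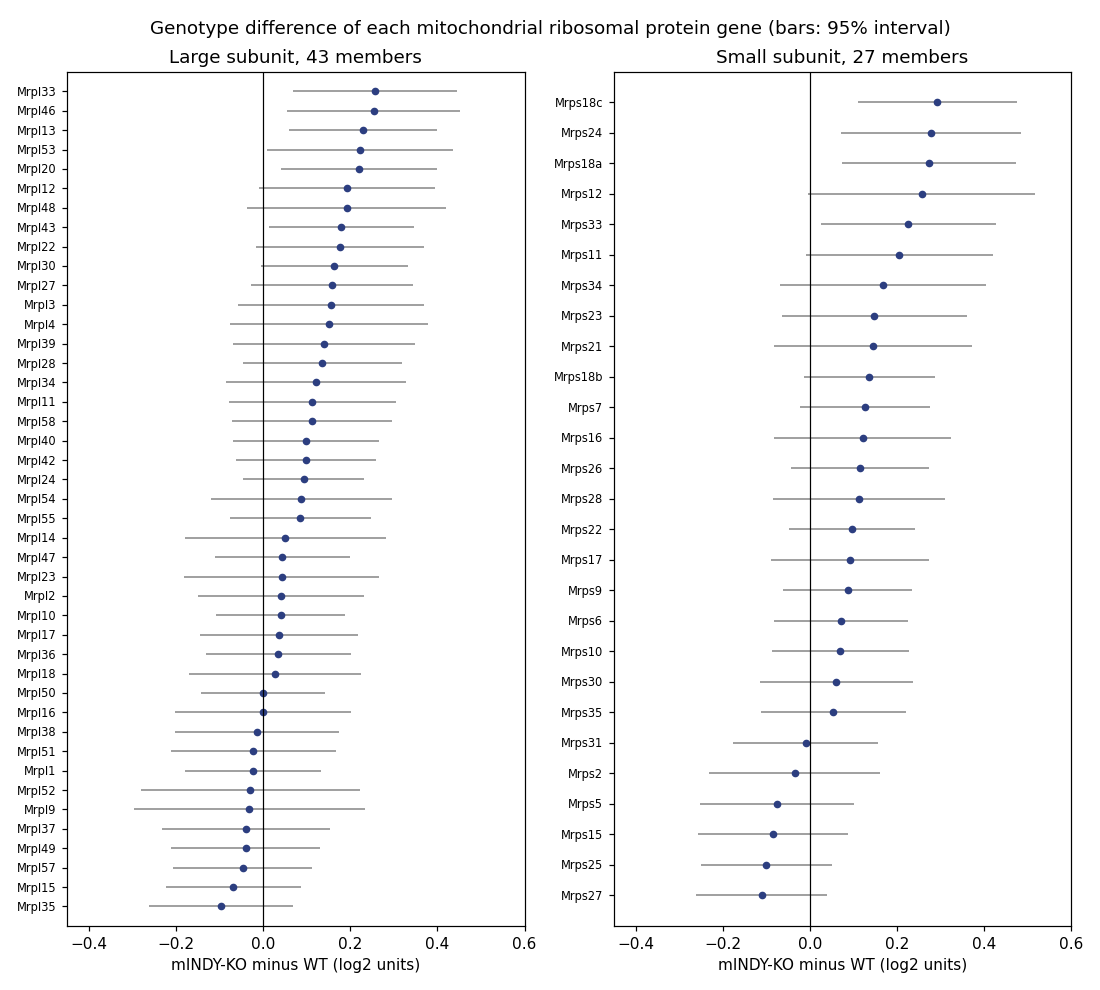
Difference in RNA level between mINDY-KO and WT mice (log2 units, points) with its 95% interval from the limma fit (bars), for 43 large-subunit and 27 small-subunit genes, ordered by difference within each subunit. Most points lie to the right of 0, from -0.11 for Mrps27 to 0.29 for Mrps18c, and intervals of 10 genes lie wholly above 0.

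These differences were of the size of the spread between mice. The median absolute genotype difference over the 70 genes was 0.098, and the median SD between mice of 1 genotype was 0.133 (range 0.063 to 0.233). For 26 of the 70 genes the difference exceeded that gene's own SD. WT mouse 1 was hybridized to 2 arrays, whose values for these genes differed by a median of 0.102 and at most 0.249, and the average of both was used.

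Averaged over the genes of a subunit, the difference was small in each mouse and ran the same way in both subunits. The mean over 43 large-subunit genes was 2.40, 2.50, 2.41, 2.51 and 2.48 in WT mice 1 to 5 and 2.49, 2.51, 2.61, 2.59 and 2.50 in mINDY-KO mice 1 to 5. That is 2.46 ± 0.051 against 2.54 ± 0.057 (SD, n = 5 each), a difference of 0.082. mINDY-KO mice 2, 3 and 4 were higher than all WT mice, mouse 2 only narrowly, and mice 1 and 5 lay within the WT range. The mean over 27 small-subunit genes was 2.56, 2.64, 2.58, 2.66 and 2.68 in the WT mice and 2.69, 2.71, 2.77, 2.77 and 2.69 in the mINDY-KO mice, or 2.63 ± 0.053 against 2.73 ± 0.041 (SD, n = 5 each), a difference of 0.10. Here the genotypes did not overlap, but the lowest mINDY-KO mouse (2.687) and the highest WT mouse (2.684) nearly touched. The proteins of Mrps18a and Mrps30 carry small-subunit symbols although they sit in the large subunit of the mammalian mitoribosome. With both genes counted there, a grouping chosen after seeing the data, 4 of 5 mINDY-KO mice were higher than all WT mice for the small subunit and the difference was 0.095. These means get no test, since the members were chosen with earlier results of these data known. The genes share mice and arrays, so they are not replicates of each other.

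**Figure D2:**
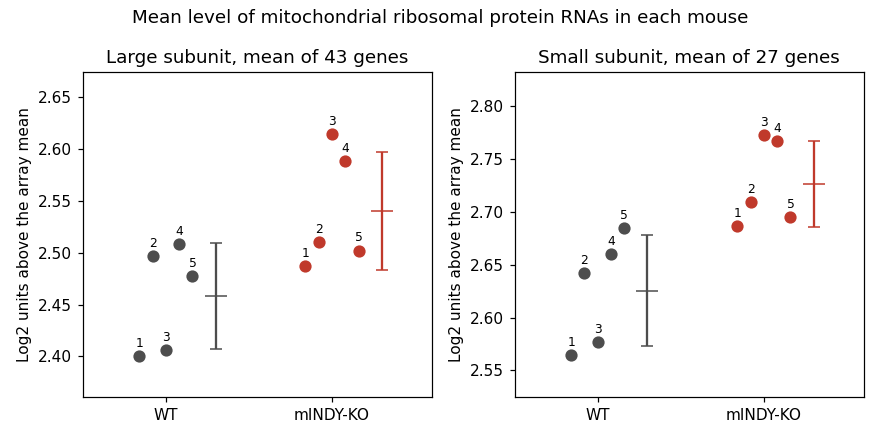
Mean RNA level (log2 units above the array mean) of 43 large-subunit genes (left) and 27 small-subunit genes (right) in each mouse, with numbers naming the mice and bars giving mean ± SD of 5 mice. mINDY-KO mice 3 and 4 are the highest in both panels, and WT mice 1 and 3 the lowest.

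mINDY-KO mice 3 and 4 carried much of the difference in the large subunit. Without them the difference of the means was 0.042 in the large and 0.071 in the small subunit, and the medians over genes were 0.040 and 0.071. Then 29 of 43 and 21 of 27 genes had a higher mean, of which 25 and 20 had one with all mice as well. Mrps17 and 6 large-subunit genes turned lower, and Mrps2 and 4 large-subunit genes, Mrpl1, Mrpl50, Mrpl51 and Mrpl57, turned higher. With 3 mINDY-KO mice left, 1 large-subunit gene was higher and 1 lower at an unadjusted p under 0.05 by limma. In the small subunit 3 genes were higher and 0 lower. The share over all genes was not counted in that setting. For 42 of the 70 genes the highest of 10 mice was mINDY-KO mouse 3 or 4, and for 39 the lowest was WT mouse 1 or 3. The arrays of mINDY-KO mice 3 and 4 also had the lowest median signals, 127 and 122, against 157 to 238 for the other mice. The part of signal strength in these values was not tested. Counted gene by gene, mINDY-KO mouse 3 was above the WT mean for 59 of 70 genes and the other mINDY-KO mice for 42 to 49, whereas WT mice were above it for 23 to 50.

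**Figure D3:**
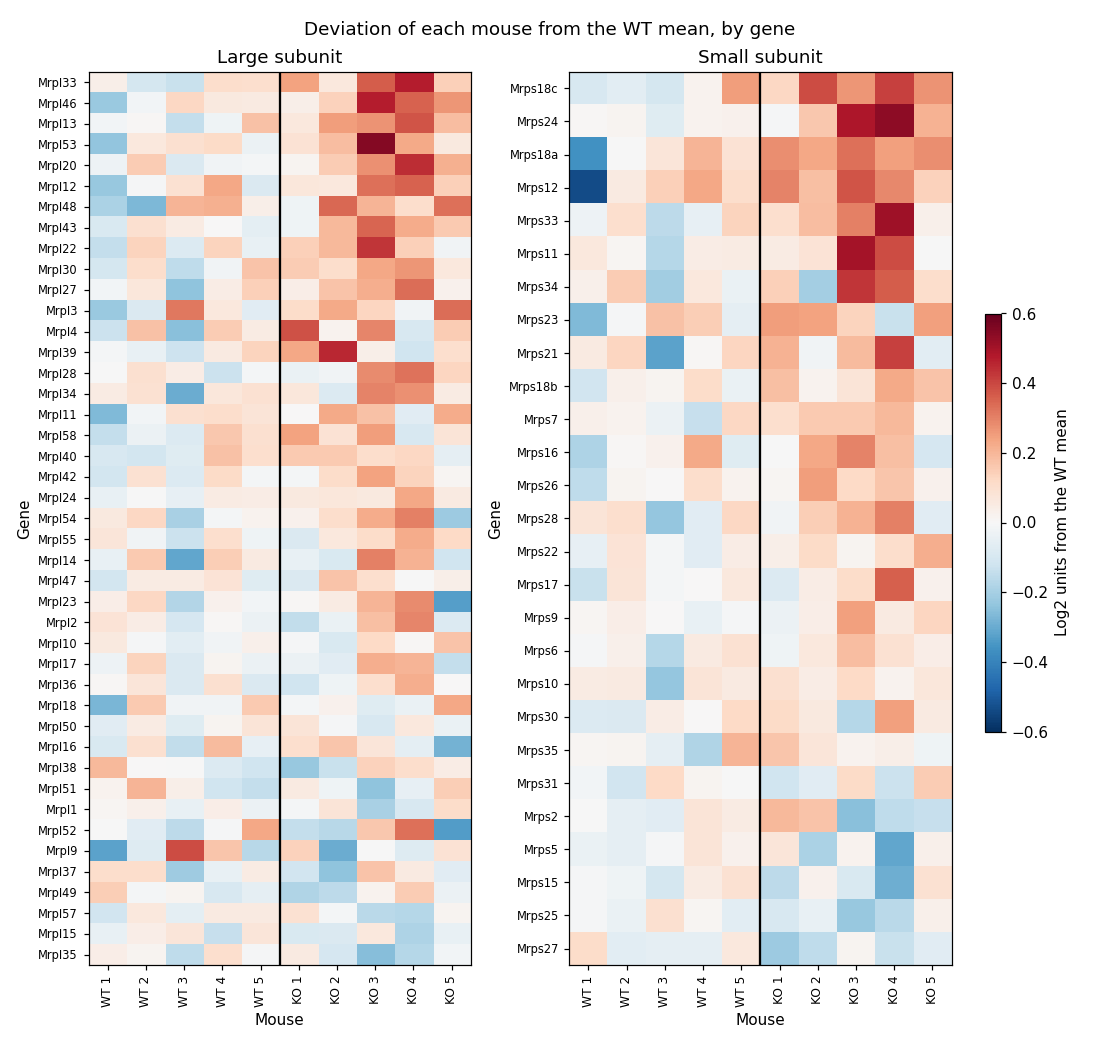
Deviation of each mouse from the WT mean (colour, log2 units) for each large-subunit gene (left) and small-subunit gene (right), with the WT mice left and the mINDY-KO mice right of the black line. The columns of mINDY-KO mice 3 and 4 hold most of the deepest red, and those of WT mice 1 and 3 hold the most blue among WT mice.

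Among genes with small-subunit symbols, Mrps18c and Mrps18a had some of the largest differences. They and Mrps18b are the 3 mammalian paralogs descended from bacterial S18, which lie at different places in the mitoribosome. Mrps18c was at 2.67, 2.70, 2.66, 2.79 and 3.02 in WT mice 1 to 5 and at 2.89, 3.16, 3.03, 3.18 and 3.04 in mINDY-KO mice 1 to 5. WT mouse 5 alone reached into the mINDY-KO range, and mINDY-KO mouse 1 was the lowest of its group. The difference was 0.29 (standard error 0.085, 1.22-fold), with the smallest p of all members, 0.00393, and an adjusted p of 0.234 from limma. Mrps18a was at 2.06, 2.42, 2.49, 2.62 and 2.51 in WT mice and 2.70, 2.65, 2.75, 2.66 and 2.70 in mINDY-KO mice. The genotypes did not overlap, the mINDY-KO mice were close together, and WT mouse 1 was far below the rest. Its difference was 0.27 (standard error 0.093, limma adjusted p = 0.312). Both differences stayed near 0.26 without mINDY-KO mice 3 and 4, but that of Mrps18a fell to 0.18 without WT mouse 1. Mrps18b differed by 0.14 (standard error 0.070), and its second, dimmer probe by 0.38 (standard error 0.13, limma adjusted p = 0.309).

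**Figure D4:**
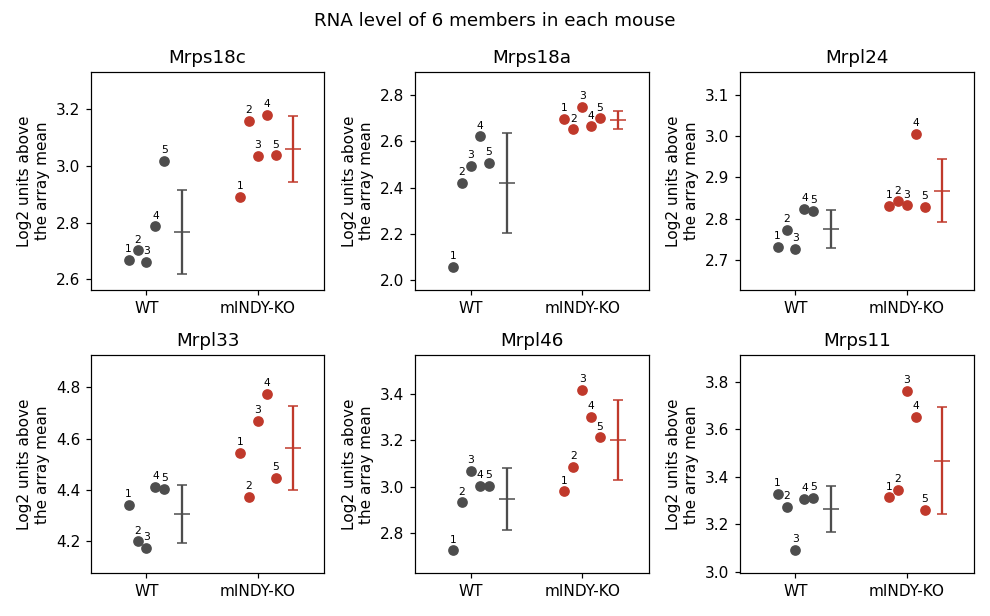
RNA level (log2 units above the array mean) of 6 genes in each WT (grey) and mINDY-KO (red) mouse, with numbers naming the mice and bars giving mean ± SD of 5 mice. The genotypes are apart for Mrps18a and Mrpl24 and overlap for the other 4 genes, and mINDY-KO mice 3 and 4 stand above the rest for Mrpl33, Mrpl46 and Mrps11.

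Other small-subunit proteins with bacterial relatives take part in decoding. Mrps12, the counterpart of the bacterial protein that governs accuracy of decoding, was at 2.99, 3.58, 3.67, 3.76 and 3.63 in WT mice and 3.82, 3.71, 3.90, 3.82 and 3.67 in mINDY-KO mice. WT mice 3 and 4 lay within the mINDY-KO range, WT mice 2 and 5 just below it and WT mouse 1 far below. The difference of 0.26 (standard error 0.12, limma adjusted p = 0.466) became 0.12 without WT mouse 1. Mrps24, the counterpart of bacterial S3 at the entry of the messenger RNA, was at 4.36, 4.38, 4.29, 4.38 and 4.38 in WT mice and 4.35, 4.52, 4.85, 4.89 and 4.57 in mINDY-KO mice. Its WT values were tight, mINDY-KO mouse 1 lay among them and the other 4 mINDY-KO mice were above. The difference of 0.28 (standard error 0.097, limma adjusted p = 0.321) was 0.12 without mINDY-KO mice 3 and 4. Mrps11, whose bacterial relative lies at the exit of the messenger RNA, was at 3.33, 3.27, 3.09, 3.31 and 3.31 and 3.31, 3.35, 3.76, 3.65 and 3.26. mINDY-KO mice 3 and 4 stood well above all WT mice, mouse 2 just above them and mice 1 and 5 among them. The difference of 0.21 (standard error 0.10, limma adjusted p = 0.477) was 0.044 without mice 3 and 4, and 0.13 without mouse 3 alone. Mrps33, a protein without a bacterial relative, differed by 0.23 (standard error 0.094, limma adjusted p = 0.408) and by 0.11 without these mice, and its second probe by 0.14. By numbering, 12 of 15 small-subunit genes numbered up to 21, as bacterial proteins are, and 9 of 12 with higher numbers had a higher mean, with medians of 0.12 and 0.10. Mrps24, though the counterpart of S3, was counted among the higher numbers, and Mrps18a and Mrps30 were counted by symbol.

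Besides Mrps18a, 1 more gene had genotypes that did not overlap, so that by symbol this held for 1 gene in each subunit. With Mrps18a and Mrps30 counted in the large subunit, it held for 2 large-subunit and 0 small-subunit genes. Over all genes, 0.763% were higher in mINDY-KO mice without overlap and 1.39% lower, and 0 members were lower in this way. The other gene was Mrpl24, whose bacterial counterpart begins the assembly of the large subunit. Mrpl24 was at 2.73, 2.77, 2.73, 2.82 and 2.82 in WT mice and 2.83, 2.84, 2.83, 3.01 and 2.83 in mINDY-KO mice. The gap between the genotypes was narrow, since 4 of the mINDY-KO mice lay just above WT mice 4 and 5, and the difference was 0.093 (standard error 0.065, limma adjusted p = 0.647), or 0.059 without mINDY-KO mouse 4. Mrpl33 was at 4.34, 4.20, 4.17, 4.41 and 4.40 in WT and 4.54, 4.37, 4.67, 4.78 and 4.45 in mINDY-KO mice. The groups overlapped at mINDY-KO mouse 2, and mice 3 and 4 were the highest. Its difference was 0.26 (standard error 0.088, limma adjusted p = 0.316), and the second probe gave 0.30. Without mINDY-KO mice 3 and 4 it was 0.15. Mrpl13 was at 3.718, 3.742, 3.592, 3.708 and 3.912 in WT and 3.797, 3.984, 4.002, 4.112 and 3.919 in mINDY-KO mice. WT mouse 5 lay above mINDY-KO mouse 1, and the other WT mice lay below all mINDY-KO mice. The difference was 0.23 (standard error 0.079, limma adjusted p = 0.321), and the second probe gave 0.12 (standard error 0.092). Mrpl20, whose bacterial relative is needed for early assembly, differed by 0.22 (standard error 0.084, limma adjusted p = 0.367), and by 0.13 without mINDY-KO mice 3 and 4.

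Large-subunit proteins gained in mitochondria showed differences of like size. Mrpl46 was at 2.724, 2.931, 3.069, 3.004 and 3.002 in WT mice and 2.980, 3.085, 3.419, 3.301 and 3.213 in mINDY-KO mice. mINDY-KO mice 2 to 5 were above every WT mouse, and mouse 1 lay within the WT range. The difference was 0.25 (standard error 0.093, limma adjusted p = 0.346) and 0.15 without mice 3 and 4. Mrpl53 differed by 0.22 (standard error 0.10, limma adjusted p = 0.440), with mINDY-KO mouse 3 far above the rest at 3.81, by 0.14 without mouse 3, and by 0.11 without mice 3 and 4. Mrpl43 differed by 0.18 (standard error 0.078, limma adjusted p = 0.422), by 0.15 on its second probe, and by 0.11 without mice 3 and 4. Of the genes numbered above 36, 11 of 18 had a higher mean in mINDY-KO mice, and of those numbered up to 36, 20 of 25, with medians of 0.086 and 0.093.

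Proteins at the stalk of the large subunit recruit translation factors. Mrpl12, the stalk protein, which also binds the mitochondrial RNA polymerase, was at 2.61, 2.82, 2.92, 3.06 and 2.74 in WT mice and 2.90, 2.89, 3.16, 3.19 and 2.98 in mINDY-KO mice. The ranges overlapped through WT mice 3 and 4, and mINDY-KO mice 3 and 4 were the highest. The difference was 0.19 (standard error 0.094, limma adjusted p = 0.482), and 0.092 without those mice. Mrpl11, at the base of the stalk, differed by 0.11 (standard error 0.090), and by 0.047 without WT mouse 1.

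Several members are known from human mitochondrial disease, in which their loss lowers the activity of respiratory complexes. Differences were 0.17 for Mrps34 (0.016 without mINDY-KO mice 3 and 4), 0.16 for Mrpl3, 0.13 for Mrps7, 0.12 for Mrps16, 0.097 for Mrps22 and -0.035 for Mrps2, with adjusted p from limma of 0.545 to 0.925. Without mINDY-KO mice 3 and 4, Mrps16 was at 0.042 and Mrps2 at 0.076. Leaving out 1 mouse at a time moved Mrpl3 from 0.10 (without WT mouse 1) to 0.23 (without WT mouse 3), Mrps34 from 0.10 (without mINDY-KO mouse 3) to 0.26 (without mINDY-KO mouse 2), and Mrps16 to 0.075 and 0.077 without WT mouse 1 and mINDY-KO mouse 3. Mrps5, whose knockdown lengthens life in the worm Caenorhabditis elegans, was at 1.59, 1.58, 1.62, 1.71 and 1.66 in WT and 1.71, 1.44, 1.65, 1.32 and 1.66 in mINDY-KO mice. mINDY-KO mice 2 and 4 were below every WT mouse and the other 3 lay within the WT range. The difference was -0.076 (standard error 0.082, limma adjusted p = 0.786), and its second probe gave -0.089. The first was -0.016 without mINDY-KO mouse 4 and -0.047 without mouse 2.

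The genes with lower means had small differences. The lowest were Mrps27 at -0.11, Mrps25 at -0.10, Mrpl35 at -0.098, Mrps15 at -0.084 and Mrps5 at -0.076, and 0 of the 18 had an unadjusted p under 0.05. Probes of these named genes were dim, with mean signals of 420 to 963, against 2402 for Mrps18c and 7119 for Mrps24. Exceptions were Mrpl39, higher by 0.14 at a mean signal of 259, and Mrpl38, at -0.014 with a mean signal of 5081. The part of probe brightness in the direction of the differences was not tested. Of 20 members with several kept probes, 7 had probes that differed in sign, namely Mrpl1, Mrpl37, Mrpl49, Mrpl51, Mrps25, Mrps31 and Mrps7. Mrpl51 was at -0.023 on its brightest probe and at 0.21 and 0.048 on the other two (standard error 0.089, 0.069 and 0.074). Mrps7 was at 0.13 on the brighter and -0.098 on the dimmer probe. For such genes the direction depended on the probe.

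Most members moved together from mouse to mouse. With the mean of each genotype removed, 52 of 70 genes correlated positively with the mean of the other members over the 10 mice, 33 of them with r above 0.5, and the median r was 0.458. The means of large and small subunit correlated with r = 0.923, and a first component held 39.0% of the variance. Mrps25 (r = -0.74), Mrpl51 (r = -0.59), Mrpl1 (r = -0.53) and Mrps2 (r = -0.44) ran against the rest, and Mrps2 was higher in mINDY-KO mice 1 and 2 than in all WT mice and lower in mINDY-KO mice 3, 4 and 5. Outside the mitoribosome, the genes whose pattern was most like the mean of the members were Piwil1 (r = 0.913), Ndufa12 (r = 0.912), Cox5a (r = 0.908), Sema3b (r = 0.907) and Imp3 (r = 0.896), over the same 10 mice. All values of a mouse share an array and its signal strength, so these correlations are descriptions. Ndufa12 and Cox5a, which belong to the respiratory chain, differed by 0.18 and 0.30 between genotypes, whereas Piwil1 and Sema3b, both below the array mean, differed by -0.082 and -0.048.

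Lists of genes that work beside the mitoribosome had medians on both sides of 0. Of 9 translation factors 6 had a higher mean, with a median of 0.041. Mtfmt, which formylates the initiator transfer RNA, was higher by 0.17 without overlap between genotypes (standard error 0.064, limma adjusted p = 0.369). Of 12 mitochondrial aminoacyl-tRNA synthetases, which charge transfer RNAs, 5 had a higher mean (median -0.026), and Wars2 had the smallest p, at -0.29 (standard error 0.10, limma adjusted p = 0.326). Of 17 genes of mitoribosome assembly and ribosomal RNA modification 7 had a higher mean (median -0.031), among them Mpv17l2, at 0.25 without overlap (standard error 0.088, limma adjusted p = 0.322), while Rmnd1 was at -0.22. Of 11 genes of mitochondrial transcription and messenger RNA stability 5 had a higher mean (median -0.023), with Ssbp1, which binds single-stranded mitochondrial DNA, at 0.28 without overlap (standard error 0.082, limma adjusted p = 0.234). Of 9 nuclear regulators 2 had a higher mean (median -0.059), and Nrf1 was at -0.15 (limma adjusted p = 0.464). Of 13 mitochondrial chaperones and proteases 7 had a higher mean (median 0.0011), with Hspe1 at 0.28 (limma adjusted p = 0.389). The 3 measured mitoribosome proteins with other symbols were at 0.20 for Chchd1, 0.086 for Dap3 and 0.063 for Ptcd3. In all of these lists 0 genes passed the test in either direction. Without mINDY-KO mice 3 and 4, 6 of 9 translation factors (median 0.079), 7 of 12 synthetases (median 0.036) and 11 of 17 assembly and modification genes (median 0.050) had a higher mean, so that the medians of the latter lists changed sign.

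Complex I subunits and proteins of the cytosolic ribosome had medians like that of the mitoribosome, and mINDY-KO mice 3 and 4 were again the highest. What differed was how far these mice lay from the rest, and where the other mINDY-KO mice lay relative to WT. Of 33 complex I genes 26 had a higher mean (median 0.092), and of 52 cytosolic ribosomal protein genes 45 (median 0.093). Their means per mouse were 3.60, 3.62, 3.96, 3.96 and 3.58 and 4.72, 4.78, 5.21, 5.29 and 4.82 in mINDY-KO mice 1 to 5, against WT ranges of 3.50 to 3.73 and 4.83 to 4.90. In both lists mINDY-KO mice 3 and 4 stood far above all WT mice, and the other 3 mINDY-KO mice were below the WT mean. Without mINDY-KO mice 3 and 4, 10 of 33 complex I genes (median -0.063) and 15 of 52 cytosolic ribosomal protein genes (median -0.10) had a higher mean, beside the 29 of 43 and 21 of 27 mitoribosome genes given above. With quantile normalization as well, a setting chosen after seeing the data, it was 14 of 33 (median -0.022) and 29 of 52 (median 0.0092), beside 28 of 43 (median 0.045) and 22 of 27 (median 0.059), so that the direction for cytosolic ribosomal proteins depended on the scaling. After quantile normalization, which gives all arrays 1 distribution of signals, the medians were 0.031 for complex I and 0.036 for cytosolic ribosomal proteins, and 0.086 and 0.11 for the large and small mitoribosomal subunit. Whether the lists differ from each other was not tested. The complex I and cytosolic ribosomal lists were drawn by symbol. They include Ndufa4 and the pseudogene Ndufs5-ps, which are not complex I subunits, and Rps19bp1, which is not a ribosomal protein.

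**Figure D5:**
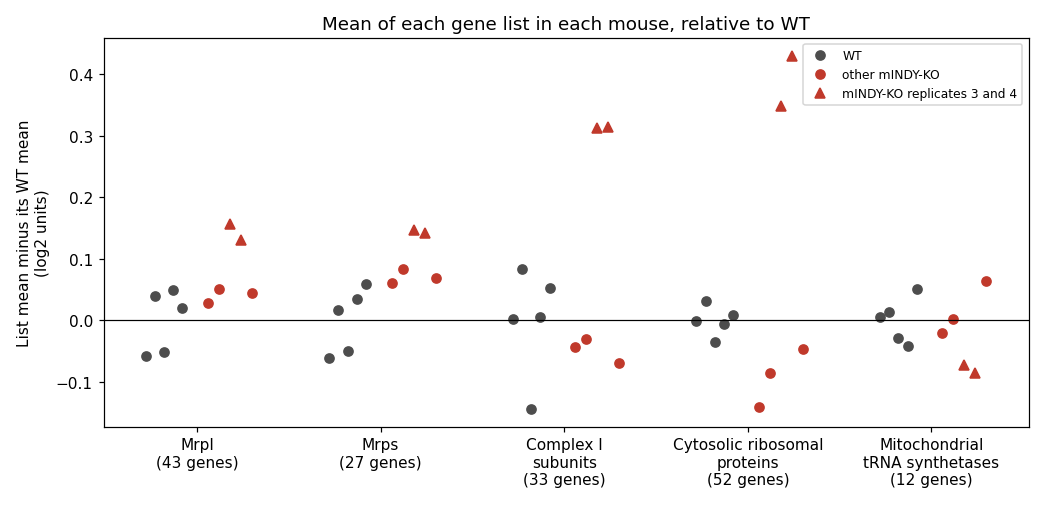
Mean level of each gene list in each mouse, minus the WT mean of that list (log2 units), for WT mice (grey circles), mINDY-KO mice 3 and 4 (red triangles) and the other mINDY-KO mice (red circles). In complex I and cytosolic ribosomal proteins the triangles lie above all other points and the red circles below 0, whereas all 5 mINDY-KO mice lie above 0 for Mrpl and Mrps genes.

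Promoters of the mitoribosome genes held 3 motifs more often than RefSeq promoters as a whole, and the choice of genes did not use these motifs. RefSeq promoters (GRCm38.p6, 250 bases before to 50 after the start site, the first listed for each gene) were found for 62 of the 70 genes, and not for Mrpl4, Mrpl13, Mrpl15, Mrpl38, Mrpl54, Mrps28, Mrps34 and Mrps35. They were searched on both strands for 3 motifs of factors known to act on nuclear genes of mitochondria. The core motif of NRF1 (GCGCA and GCGC with any base between) was in 10 of 62 member promoters (16.1%), against 4.78% of 27025 promoters. The motif of the ETS family, which includes GABPA (CCGGAAGT), was in 11 (17.7%), against 4% of all, and the YY1 motif (AANATGGC) in 19 (30.6%), against 6.23%. At least 1 of the motifs was in 35 of 62 (56.5%), against 13.7% of all promoters, with 23 of 38 in the large and 12 of 24 in the small subunit, and 1 pair of matches overlapped. Member promoters held a median of 58.5% G and C, against 52.7%, and the part of base composition in these shares was not tested. All members were detected, whereas the 27025 promoters include those of genes not kept here. The part of expression in these shares was not tested either. Members with and without a motif had like median differences between genotypes, 0.10 and 0.095 for NRF1, 0.11 and 0.092 for ETS, and 0.093 and 0.097 for YY1. The promoters of 6 genes described above are shown, those with non-overlapping genotypes or large differences and that of the stalk protein, with motif matches in capitals, 5′ to 3′ on the strand of the gene. They hold an ETS match in Mrps18c and Mrpl33, a YY1 match in Mrps18a, Mrpl24 and Mrps11, and an NRF1 match in Mrpl12. A match is a stretch of letters, not a shown binding site.
Mrps18c (chr5:100798509-100798808, + strand): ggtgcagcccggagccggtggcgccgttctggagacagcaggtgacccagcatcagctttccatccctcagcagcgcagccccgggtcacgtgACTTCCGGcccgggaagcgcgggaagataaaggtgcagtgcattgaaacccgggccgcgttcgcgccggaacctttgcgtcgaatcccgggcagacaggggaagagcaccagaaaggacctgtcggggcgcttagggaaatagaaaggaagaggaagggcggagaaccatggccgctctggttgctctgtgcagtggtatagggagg
Mrps18a (chr17:46110754-46111053, + strand): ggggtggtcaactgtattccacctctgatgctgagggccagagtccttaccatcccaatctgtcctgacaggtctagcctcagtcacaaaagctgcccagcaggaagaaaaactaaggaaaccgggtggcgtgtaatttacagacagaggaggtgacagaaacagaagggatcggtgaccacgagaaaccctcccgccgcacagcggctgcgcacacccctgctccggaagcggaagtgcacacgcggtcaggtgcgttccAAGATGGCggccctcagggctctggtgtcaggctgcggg
Mrpl24 (chr3:87919294-87919593, + strand): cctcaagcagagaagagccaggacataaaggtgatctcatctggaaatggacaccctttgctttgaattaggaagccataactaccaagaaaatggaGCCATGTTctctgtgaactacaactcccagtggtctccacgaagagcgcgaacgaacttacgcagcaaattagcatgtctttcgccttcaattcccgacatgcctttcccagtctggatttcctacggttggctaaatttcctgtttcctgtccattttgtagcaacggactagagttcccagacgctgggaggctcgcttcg
Mrpl33 (chr5:31613701-31614000, + strand): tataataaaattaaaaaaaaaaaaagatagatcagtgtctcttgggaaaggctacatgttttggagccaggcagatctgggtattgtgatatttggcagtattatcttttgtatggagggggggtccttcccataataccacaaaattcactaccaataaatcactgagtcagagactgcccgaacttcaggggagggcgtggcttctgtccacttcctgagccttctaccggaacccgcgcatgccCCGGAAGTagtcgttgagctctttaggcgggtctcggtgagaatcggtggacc
Mrps11 (chr7:78782881-78783180, + strand): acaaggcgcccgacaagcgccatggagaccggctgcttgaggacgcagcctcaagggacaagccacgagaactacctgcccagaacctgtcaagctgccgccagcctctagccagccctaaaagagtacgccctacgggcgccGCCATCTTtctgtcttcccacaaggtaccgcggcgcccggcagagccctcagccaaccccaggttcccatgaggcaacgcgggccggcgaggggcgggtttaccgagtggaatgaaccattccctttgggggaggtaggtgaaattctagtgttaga
Mrpl12 (chr11:120484387-120484686, + strand): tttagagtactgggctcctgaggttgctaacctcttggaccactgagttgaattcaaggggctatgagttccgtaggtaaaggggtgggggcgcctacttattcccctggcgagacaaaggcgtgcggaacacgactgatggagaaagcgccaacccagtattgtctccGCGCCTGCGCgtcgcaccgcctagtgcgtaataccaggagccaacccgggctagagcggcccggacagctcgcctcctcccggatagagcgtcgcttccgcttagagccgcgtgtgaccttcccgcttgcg

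Many members lay head to head with a neighbour, their start sites on opposite strands within 1000 bases. This held for 22 of the 62 members with a promoter (35.5%), against 10.5% of all 27025 genes, a comparison chosen after the data were seen. Those 27025 genes include genes not kept here, and the part of expression was not tested. Mrpl46 and Mrps11, of different subunits, start 42 bases apart, and both had their highest levels in mINDY-KO mice 3 and 4, with differences of 0.25 and 0.21. Mrpl47 lies 308 bases from Ndufb5, a complex I subunit, which differed by 0.39 (standard error 0.087, limma adjusted p = 0.157), while Mrpl47 differed by 0.044. Mrps18c lies 159 bases from Helq, a DNA helicase, which differed by -0.082, and Mrps12 lies 147 bases from Sars2, a mitochondrial tRNA synthetase, which differed by 0.059. Mrpl14, at 0.051, lies 131 bases from Tmem63b, at -0.31. Over 13 measured neighbours that were not members, 5 had a higher mean and the median was -0.0069, beside a median of 0.041 for their 13 members, and member and neighbour had the same sign in 6 of 13 pairs.

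Markers of the cell types of the tissue were checked beside these values. Of 8 adrenocortical markers, among them Star and Cyp11a1 of steroid synthesis, 5 had a higher mean (median 0.036), with list means of 3.33 to 3.63 in WT and 3.36 to 3.66 in mINDY-KO mice. Of 8 chromaffin cell markers, which mark the medulla, 1 had a higher mean (median -0.20), with list means of 3.59 to 4.16 in WT and 3.39 to 3.93 in mINDY-KO mice. The list holds Th, Ddc, Dbh and Pnmt, whose RNA the paper reports as reduced in mINDY-KO mice by RT-PCR on adrenal glands. On these arrays they differed by -0.11, -0.35, -0.082 and -0.21, Ddc without overlap between genotypes (limma adjusted p = 0.170). Outside these enzymes, Scg2, Chrna3 and Chga differed by -0.24, -0.23 and -0.20, and Chgb by 0.11. Fewer medullary cells and less RNA per cell cannot be told apart in these values. Among macrophage markers 5 of 6 had a higher mean (median 0.16), among endothelial markers 2 of 8 (median -0.041), among adipocyte markers 3 of 3, and among erythroid markers 0 of 2. Of 6 kidney and liver markers, 1 was above background, Apoa2. In these lists 0 markers passed the test, and their part in the mitoribosome values was not tested. On all 11 arrays the Slc13a5 probe stayed at background (detection p 0.0714 to 0.357), and it gives no check of genotype.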

How the data were processed

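Per the submitters' processing notes, GenomeStudio (version 2011.1) was used. The authors deposited its bead-averaged intensity for each probe, linear and not normalized between arrays, and the detection p-value of that intensity. They also deposited a Z score of each probe, which equals the log10 signal minus the array mean, divided by the array SD, within 0.0102. Z scores were computed anew from the intensities of 11 arrays and multiplied by 1.57, the mean SD of log2 signals. Both arrays of WT replicate 1 were averaged. Probes with a detection p under 0.05 in at least 5 of 10 mice were kept (13341 of 25697). A gene with several kept probes was given by the one of highest mean signal. Symbols were those of the platform annotation, which gives 23978 probes 1 symbol, 0 several and leaves 1719 unnamed. The genotype difference was fitted in R 4.3.3 by limma 3.58.1 (lmFit, eBayes), two-sided, and p-values were adjusted by Benjamini and Hochberg's method over all kept probes. The fit was tested on simulated data. The number of arrays limits the precision. Which slide held which array is not given here, so slide was not tested.

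Named members were the 6 of smallest p in each subunit, those whose genotypes did not overlap, those with probes of opposite sign, and a set chosen by role, of which Mrpl44 was not analysed here. From each other list up to 3 genes of smallest p were named, besides Dap3 and Ptcd3. The members and lists were chosen with earlier results of these data known. Alternatives were neqc, quantile normalization, median-centred log2 signals, the deposited Z scores, other detection filters, either array of WT replicate 1 alone, a replicate block, weights for array quality, a trend with intensity, the mean of all probes of a gene, the test of the methods (Z ratio 1.5, p 0.05, false discovery rate 0.3) and leaving out mice. Further settings were added after seeing the data, quantile normalization without mINDY-KO replicates 3 and 4, and Mrps18a and Mrps30 counted with the large subunit. Figures were drawn with matplotlib (version 3.10.9).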

Additional observations from a re-analysis of the deposited data

Results flagged for a closer look

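In 4 of 60 groups of 5 mice examined, 1 mouse lay far from the other 4 by Dixon's criterion, which chance meets in about 1 of 20 groups. For Mrps12, WT replicate 1 was at 2.99, against 3.58 to 3.76 in the other WT mice. For Mrps24 and Mrps11, WT replicate 3 was at 4.29 and 3.09, against 4.36 to 4.38 and 3.27 to 3.33 in the other WT mice. For Mrpl24, mINDY-KO replicate 4 was at 3.01, against 2.83 to 2.84 in the other mINDY-KO mice.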

How the results depend on the processing

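In every setting run, 0 of the large-subunit and 0 of the small-subunit genes passed the test, and both medians stayed above 0. Leaving out 1 mouse at a time, the median was 0.056 to 0.10 in the large and 0.082 to 0.12 in the small subunit, and with quantile normalization without mINDY-KO replicates 3 and 4 it was 0.045 and 0.059. For the small-subunit mean, each of the 5 mINDY-KO mice exceeded all WT mice in all settings with 5 such mice, except median-centred log2 signals (2 of 5) and Mrps18a and Mrps30 counted with the large subunit (4 of 5). Genotypes without overlap were found for 0 large-subunit genes with neqc, quantile normalization or median-centred signals, and for 2, 2 and 0 small-subunit genes.

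Over all probes, 2 were called, and 0 with neqc, median-centred log2 signals, no detection filter, the analysis of variance of the methods after Benjamini-Hochberg adjustment, or without mINDY-KO replicates 3 and 4 under either normalization. The count was 1 with the deposited Z scores, 6 with an intensity trend, and 0 to 14 leaving out 1 mouse, with 14 without mINDY-KO replicate 2. With the replicate block 1 probe was called and 0 members. The labels do not say that the numbers pair the mice. Deviations of same-numbered mice correlated at -0.304 to -0.108, and 0 of 5 mINDY-KO mice correlated best with their own number. Such correlations cannot show whether mice were paired.

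Genes with small negative differences turned positive in some settings, and some became more negative in others. Mrpl51 was at 0.0023 with neqc, 0.00033 with quantile normalization and 0.079 as the mean of its probes. As such means, Mrpl1 was at 0.024, Mrpl37 at 0.0031, Mrpl49 at 0.055 and Mrps31 at 0.064. Array quality weights put Mrps31 at 0.0080. Without mINDY-KO replicates 3 and 4, Mrpl1 was at 0.059, Mrpl51 at 0.059 and Mrps2 at 0.076, and at 0.050, 0.023 and 0.038 with quantile normalization as well. With the same mice left out and the main scaling, Mrpl37 fell to -0.14 and Mrpl49 to -0.12. Leaving out 1 mouse gave -0.057 to 0.020 for Mrpl1, -0.092 to 0.012 for Mrpl37, -0.066 to 0.031 for Mrpl51, -0.050 to 0.020 for Mrps31 and -0.092 to 0.019 for Mrps2. The causes were not tested.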
